A study of Mus musculus with 24 samples.

Results

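The protein arginine methyltransferases are enzymes that transfer methyl groups from S-adenosylmethionine (AdoMet) to arginine side chains of histones and RNA binding proteins. 8 genes were chosen by name from the gene name column of the scanner files, Prmt1, Prmt2, Prmt3, Carm1, Prmt5, Prmt6, Prmt7 and Prmt8, out of 27592 gene names on the array, and no older synonym was needed. They had 15 probes between them. A gene entered the fit where at least 1 of the 6 groups had it well above background in each of its 4 samples; 7 of the 8 genes did, and Prmt8 was not tested.

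The cells were mouse N1E-115, a line from a neuroblastoma that serves as a stand-in for neurons. WT cells were not transfected. TO cells carried a chimera in which the N-terminal of transcobalamin (TCN2), the protein that carries cobalamin (vitamin B12), was joined to oleosin, a plant oil body protein, and this fusion binds cobalamin with high affinity. OT cells carried the C-terminal fusion, which had no detectable cobalamin binding. Each of the 3 lines was grown in proliferation medium with 10% fetal calf serum (groups WT-p, TO-p and OT-p) or in differentiation medium with 2.5% serum and 1.25% dimethyl sulfoxide (WT-d, TO-d and OT-d), both in DMEM. Total RNA of 4 samples a group was measured, 24 samples in all, on 12 two-colour arrays of 3 slides, with 2 samples of each group in Cy5 and 2 in Cy3. The labels call the samples biological replicates but give neither separate cultures nor the number of clones of each construct, so the p-values speak of the spread among the 4 samples at hand, which may be technical, and a property of 1 transfected clone cannot be told apart from an effect of its construct. In 6 of the samples, 1 a group, the description repeats the number of another sample of the group with a letter b; whether these pairs share an RNA extract is not stated, and results are also given without those 6.

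Arginine methyltransferases fall into classes by product. Prmt1, the main enzyme of asymmetric dimethylarginine, and Carm1, Prmt2, Prmt3, Prmt6 and Prmt8 place both methyl groups on the same nitrogen, Prmt5 makes symmetric dimethylarginine together with its partner Wdr77, and Prmt7 makes monomethylarginine. All use AdoMet, whose methionine is rebuilt from homocysteine by methionine synthase (Mtr), an enzyme that needs cobalamin. Elavl1 (HuR), an RNA binding protein that shuttles between nucleus and cytoplasm and is named in the series title, is a known substrate of Carm1.

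Levels below are log2 normalised intensities, 1 per sample, listed for replicates 1 to 4, where replicates 1 and 2 were labelled with Cy5 and 3 and 4 with Cy3. A level can be compared between samples for 1 probe but not between probes. Differences are fitted log2 differences with their standard error (SE) and, in brackets, the 95% interval where given. A gene was called where its limma p, adjusted by Benjamini-Hochberg over the 16241 genes tested, was under 0.05. Between 54.3% and 65.9% of spots in a sample were well above background, no spot was saturated, and the raw median intensity ran from 65 to 163.5. As for the cell type, 11 of 13 neuroblastoma and sympathoadrenal markers were well above background in all 24 samples, and the neurofilaments Nefl and Nefm in none. Of markers of other cells, 4 of 7 for glia, 2 of 6 on the array for blood and endothelium, and 2 of 6 for fibroblasts and smooth muscle were above background in all 24, while Ptprc and Cdh5, which mark blood and endothelial cells, were above it in none. The summed intensity of the glial markers was 1098 to 1400 in WT-p and 2473 to 2604 in WT-d, 955 to 1125 in TO-p and 1246 to 1569 in TO-d, and 899 to 1048 in OT-p and 1565 to 1809 in OT-d. That of the fibroblast and smooth muscle markers was 7918 to 9452 over the proliferation groups and 3530 to 6194 over the differentiation groups. These sums moved with the medium, and in differentiation medium WT-d also lay apart from TO-d and OT-d in both. The fibroblast and smooth muscle sum was 3530 to 4220 in WT-d, 4997 to 5909 in TO-d and 5169 to 6194 in OT-d. That of the blood and endothelium markers was 671 to 711 in WT-d, 560 to 602 in TO-d and 562 to 602 in OT-d. Of the 11 neuroblastoma markers tested, 8 were lower and 1 higher in TO-d against OT-d (median -0.45), where 20.8% and 18.9% of all genes were. In OT-d against WT-d 8 were higher and 0 lower (median 0.62), where 26.6% and 25.1% of all genes were. The part of these shifts in the results below, on the medium and on the lines, was not tested.

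**Figure D1:**
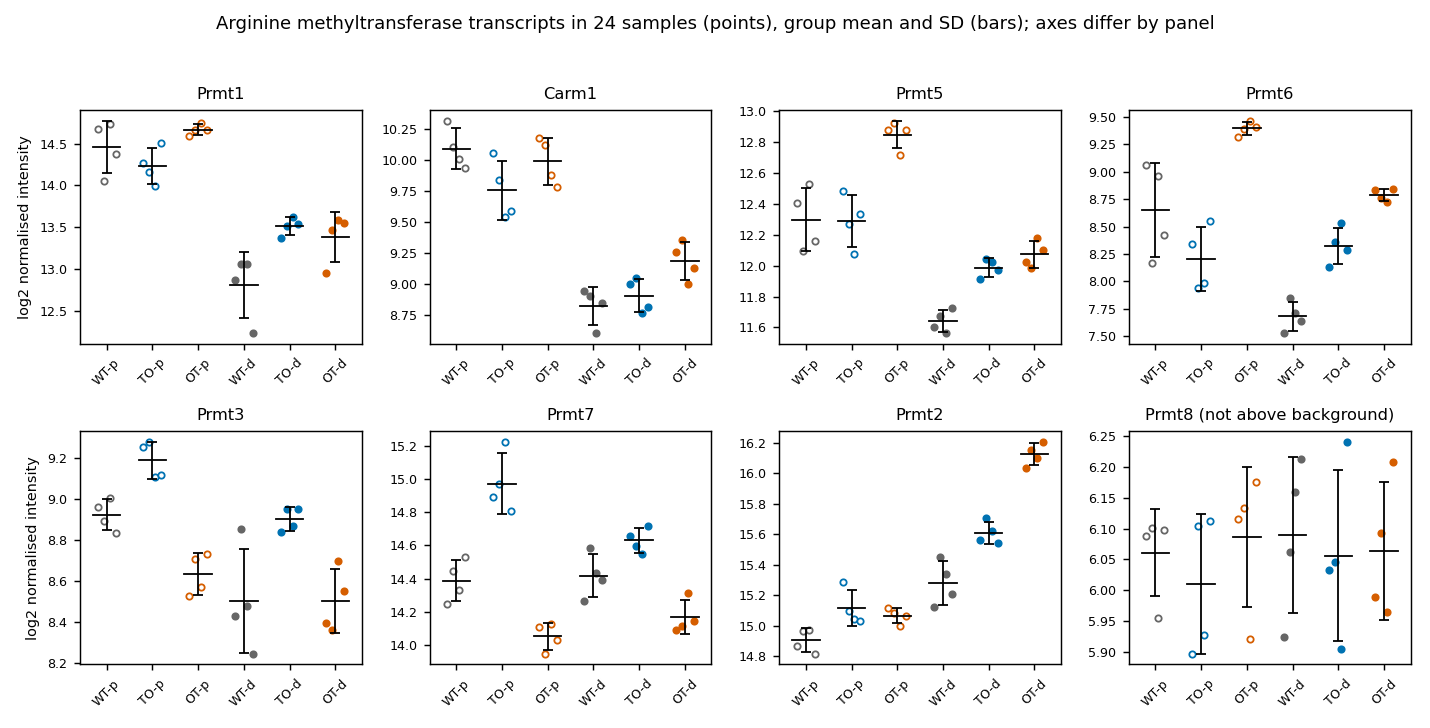
Log2 normalised intensity of the 8 genes (y axis, scale differs by panel) in the 6 groups (x axis): points are samples in the order of replicates 1 to 4, open in proliferation and filled in differentiation medium, and bars are the group mean and SD. Prmt1, Carm1 and Prmt5 lay lower in differentiation medium in all 3 lines and Prmt2 lay higher, while Prmt6 was highest in OT-p and lowest in WT-d, Prmt7 was highest in TO-p, and Prmt8 stayed between 5.90 and 6.24.

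Change of medium moved most of these transcripts. In WT cells 6 of 7 members changed, 1 up and 5 down, where 66.7% of all genes tested were called, 35.8% higher and 30.8% lower. In TO cells 6 of 7 changed, again 1 up and 5 down, where 52.3% of all genes were called, 26.5% higher and 25.8% lower. In OT cells 5 of 7 changed, 1 up and 4 down, where 67.4% were called, 36.4% higher and 31.0% lower. A majority of all genes was thus called too, and the number of members called in either direction is no result about them. As the samples are bulk RNA, fewer cells that express a gene and less of its RNA per cell cannot be told apart, here and below. Prmt2 was the member that rose in each line. The median log2 difference of the 7 members was -0.66 in WT, -0.29 in TO and -0.65 in OT, where the median over all genes tested was 0.06, 0.00 and 0.04. Leaving out the 6 letter b samples gave 6, 5 and 5 called members in WT, TO and OT.

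Prmt1, which makes most of the asymmetric dimethylarginine in mammalian cells, had the widest range of group means among the 7, 1.86. Its probe A_51_P389531 lies at chr7:44846764-44846823 (mm8) and is listed for transcript NM_019830. The samples of WT-p were at 14.68, 14.05, 14.73 and 14.38, and those of WT-d at 12.88, 13.06, 13.06 and 12.24. The samples of TO-p were at 14.27, 14.16, 13.99 and 14.50, and those of TO-d at 13.37, 13.52, 13.62 and 13.54. The samples of OT-p were at 14.59, 14.67, 14.74 and 14.66, and those of OT-d at 12.95, 13.47, 13.58 and 13.55. Every sample in differentiation medium was thus below every sample of the same line in proliferation medium, and WT-d replicate 4 was the lowest of the 24. Prmt1 fell by 1.73 (SE 0.158, 3.32-fold, adjusted p = 2.05e-09) in WT, by 0.71 (SE 0.148, 1.64-fold, adjusted p = 0.000296) in TO and by 1.37 (SE 0.141, 2.59-fold, adjusted p = 9.53e-09) in OT. The fall was 1.02 smaller in TO than in WT (SE 0.219, adjusted p = 0.00105). It was also 0.66 smaller in TO than in OT (SE 0.214, adjusted p = 0.017), a difference that was not called with the description number as a random block (adjusted p = 0.093), without the letter b samples (0.061) and with local backgrounds as deposited (0.0787), over a range of 0.0029 to 0.093 in 30 other settings. Between OT and WT the response differed by 0.36 [-0.06, 0.78] and was not called (adjusted p = 0.175).

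Within a medium, Prmt1 separated the lines in different ways. In proliferation medium the order was OT-p (14.66 ± 0.0630, SD), WT-p (14.46 ± 0.312) and TO-p (14.23 ± 0.213), and neither pair of neighbours in that order was called apart, with adjusted p = 0.141 and 0.192, though TO-p was called below WT-p with loess alone (adjusted p = 0.0466) and without WT-p replicate 2 (0.0486), over a range of 0.0466 to 0.577. The extremes differed: TO-p was lower than OT-p by 0.49 [-0.80, -0.19] (adjusted p = 0.00653), with no overlap of their samples. It was called in 20 of 22 other settings, with adjusted p from 0.00265 to 0.0705. In differentiation medium TO-d (13.51 ± 0.106) and OT-d (13.39 ± 0.296) differed by 0.17 [-0.16, 0.49] and were not called (adjusted p = 0.437). Both were above WT-d (12.81 ± 0.390), by 0.77 (SE 0.168, adjusted p = 0.00073) for TO-d and by 0.61 (SE 0.148, adjusted p = 0.00163) for OT-d.

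Carm1, a coactivator that methylates histone H3 as well as RNA binding proteins, fell in all 3 lines. Its brighter probe, A_52_P119883 at chr9:21339476-21339535 (mm8, NM_021531), gave 10.31, 10.10, 10.01 and 9.94 in WT-p and 8.94, 8.90, 8.61 and 8.85 in WT-d. It gave 10.05, 9.84, 9.54 and 9.59 in TO-p and 9.00, 9.05, 8.77 and 8.82 in TO-d. In OT-p it gave 10.17, 10.12, 9.88 and 9.78, and in OT-d 9.26, 9.36, 9.00 and 9.13. The 12 samples of one medium did not overlap with the 12 of the other, and in all 6 groups both Cy5 samples were above both Cy3 samples, a dye difference that the fit removes and that no other member showed in more than 2 groups. Carm1 fell by 1.24 (SE 0.0664, 2.36-fold, adjusted p = 2.93e-13) in WT, by 0.83 (SE 0.0624, 1.78-fold, adjusted p = 1.31e-10) in TO and by 0.76 (SE 0.0593, 1.69-fold, adjusted p = 9.21e-11) in OT. The fall in WT was larger than in TO by 0.40 (SE 0.0923, adjusted p = 0.00186) and than in OT by 0.48 (SE 0.0849, adjusted p = 0.000147), whereas TO and OT differed by -0.08 [-0.26, 0.11] and were not called. The difference between TO and WT was not called without a dye term (adjusted p = 0.0949), without the letter b samples (0.0953) or with the mean of both probes (0.121), over a range of 0.000264 to 0.121.

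Between the lines Carm1 differed by less. TO-p was lower than OT-p by 0.21 [-0.34, -0.09] (adjusted p = 0.00508) and lower than WT-p by 0.32 [-0.45, -0.20] (adjusted p = 0.000187), in both cases with overlapping samples. Within slide 1 the difference between TO-p and WT-p, of 1 against 2 samples, was 0.08, and within slides 2 and 3 it was -0.75 and -0.26. These are differences of plain means from which the dye difference was not removed. On slide 1 TO-p was in Cy5 and WT-p in Cy3, on slide 2 the reverse, and on slide 3 both were in Cy5. In differentiation medium OT-d was the highest, above TO-d by 0.29 [0.15, 0.43] (adjusted p = 0.00123) and above WT-d by 0.37 (SE 0.0624, adjusted p = 3.92e-05), while TO-d and WT-d were not called apart (adjusted p = 0.393). Both calls between TO and OT were lost with loess alone (adjusted p = 0.103 and 0.251) and without a dye term (0.152 and 0.0947), and that in proliferation medium also with the mean of both probes (0.393), over ranges of 0.000407 to 0.393 and 0.000773 to 0.251. The dimmer probe, A_52_P283258, which starts 1216 bases away and is listed for the same transcript, gave none of these differences: its group means ran from 6.69 to 6.88, its differences between media were -0.13 in WT, -0.19 in TO and -0.05 in OT, and none of the 3 was called (adjusted p = 0.21, 0.07 and 0.605). The results for Carm1 therefore rest on 1 of its 2 probes.

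Prmt5, the main source of symmetric dimethylarginine and a methyltransferase of spliceosomal Sm proteins, fell in each line and was highest in OT-p. Probe A_52_P677147 lies at chr14:53461891-53461950 (mm8, NM_013768). Its levels were 12.40, 12.09, 12.53 and 12.16 in WT-p, 12.48, 12.27, 12.07 and 12.34 in TO-p, and 12.88, 12.92, 12.72 and 12.88 in OT-p. In differentiation medium they were 11.60, 11.67, 11.56 and 11.72 in WT-d, 11.91, 12.04, 12.02 and 11.97 in TO-d, and 12.02, 11.99, 12.18 and 12.10 in OT-d. OT-p thus stood above the other 20 samples, and WT-d below them. The fall with the medium was 0.66 (SE 0.0906, 1.58-fold, adjusted p = 1.15e-06) in WT, 0.29 (SE 0.0853, 1.22-fold, adjusted p = 0.00663) in TO and 0.77 (SE 0.0810, 1.70-fold, adjusted p = 1.45e-08) in OT. The fall in TO was not called with loess alone (adjusted p = 0.132), with local backgrounds as deposited (0.117) or without the letter b samples (0.0737), over a range of 0.00161 to 0.132. It was smaller than in OT by 0.48 (SE 0.123, adjusted p = 0.00324) and than in WT by 0.37 (SE 0.126, adjusted p = 0.0251), and OT and WT were not called apart (-0.11 [-0.35, 0.13]). Without the letter b samples these differences had adjusted p = 0.0504 and 0.156, and the difference between TO and WT was not called either without WT-p replicate 1 (adjusted p = 0.0681), WT-p replicate 3 (0.102), TO-p replicate 2 (0.0501) or TO-d replicate 4 (0.0514), nor with the description number as a random block (0.0635), over ranges of 0.00116 to 0.0504 and 0.00401 to 0.156.

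Within proliferation medium OT-p exceeded TO-p in Prmt5 by 0.56 [0.39, 0.74] (1.48-fold, adjusted p = 5.73e-06) and WT-p by 0.55 [0.39, 0.71] (1.47-fold, adjusted p = 4.34e-06), with no overlap in either case. TO-p and WT-p differed by -0.01 [-0.18, 0.16]. In differentiation medium both transfected lines were above WT-d, TO-d by 0.36 (SE 0.0966, adjusted p = 0.00441) and OT-d by 0.44 (SE 0.0853, adjusted p = 0.000163), again with no overlap. TO-d and OT-d differed by -0.08 [-0.27, 0.10] and were not called (adjusted p = 0.504).

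Prmt2, an enzyme of low activity that acts as a coactivator of nuclear receptors, was the member that rose in differentiation medium. Probe A_51_P219064 lies at chr10:75650992-75651051 (mm8, NM_133182). Its samples were at 14.87, 14.97, 14.97 and 14.81 in WT-p, 15.29, 15.09, 15.05 and 15.03 in TO-p, and 15.12, 15.08, 15.00 and 15.06 in OT-p. They were at 15.12, 15.45, 15.34 and 15.21 in WT-d, 15.56, 15.70, 15.62 and 15.54 in TO-d, and 16.04, 16.15, 16.10 and 16.21 in OT-d. All 4 samples of OT-d lay above the other 20, followed by those of TO-d. Prmt2 rose by 0.39 (SE 0.0753, 1.31-fold, adjusted p = 8.82e-05) in WT, by 0.49 (SE 0.0708, 1.40-fold, adjusted p = 3.84e-06) in TO and by 1.06 (SE 0.0673, 2.09-fold, adjusted p = 2.47e-12) in OT, with no overlap between media in any line. The rise in OT exceeded that in TO by 0.58 (SE 0.102, adjusted p = 0.000111) and that in WT by 0.67 (SE 0.0963, adjusted p = 1.26e-05), in each of 30 other settings. TO and WT differed in their rise by 0.10 [-0.12, 0.31] and were not called. The rise in WT was not called with loess alone (0.25, adjusted p = 0.0576), over a range of 6.47e-06 to 0.0576.

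In differentiation medium Prmt2 therefore ordered the lines as OT-d (16.13 ± 0.0731), TO-d (15.61 ± 0.0728) and WT-d (15.28 ± 0.143). Each step was called: OT-d was above TO-d by 0.52 [0.36, 0.67] (adjusted p = 8.48e-06) and TO-d above WT-d by 0.32 [0.15, 0.49] (adjusted p = 0.00257, and 0.0523 with the deposited series table in place of the scanner values, the highest of a range from 0.000633). In proliferation medium TO-p and OT-p were not called apart (0.06 [-0.09, 0.21], adjusted p = 0.506). Both were above WT-p, by 0.22 (SE 0.0673, adjusted p = 0.0127) and 0.16 (SE 0.0636, adjusted p = 0.041), and these small differences were called in 18 and in 7 of 22 other settings, with adjusted p from 0.00904 to 0.201 and from 0.0119 to 0.382. The first was not called without TO-p replicate 1 (0.17, adjusted p = 0.116). The other was not called in turn without OT-p replicates 1, 3 or 4 or WT-p replicates 1, 2 or 4, with adjusted p between 0.0658 and 0.111.

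**Figure D2:**
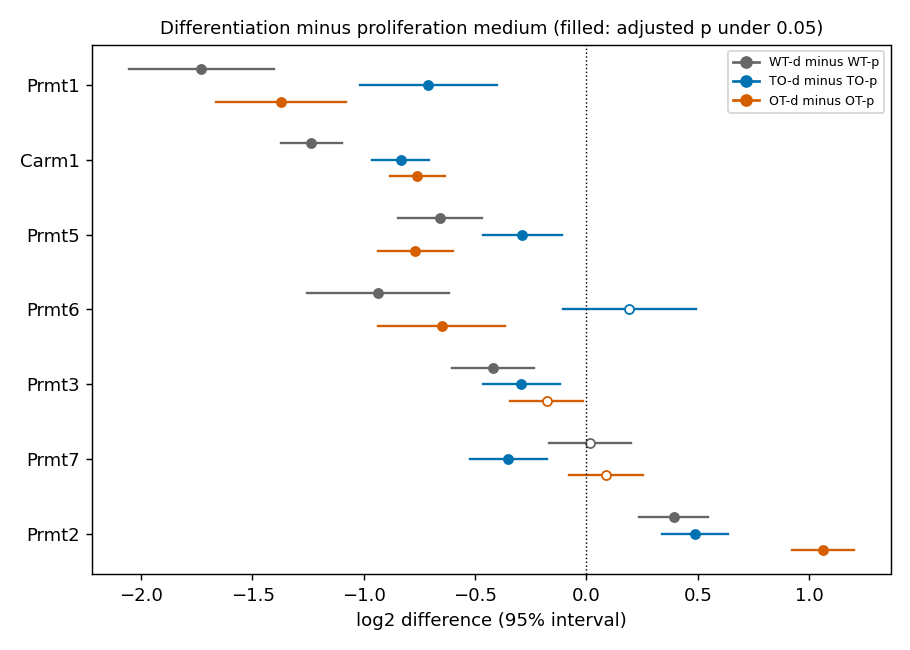
Fitted log2 differences between differentiation and proliferation medium (x axis) for the 7 tested members (y axis) in WT (grey), TO (blue) and OT (orange) cells; lines are 95% intervals, and filled points have an adjusted p under 0.05. Prmt1 ran from -1.73 in WT to -0.71 in TO, Prmt2 rose by 1.06 in OT against 0.39 in WT, and Prmt6 was at 0.19 in TO while it fell in the other lines.

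The stretches before the starts of Prmt1 and Prmt5, which fell together, and of Prmt2, which rose, are shown because these members moved with the medium in all 3 lines, as Carm1 did. They are the 250 bases upstream of the RefSeq start on the GRCm38.p6 build, written 5′ to 3′ on the strand of the gene, the minus strand in each case. RefSeq windows matched 7 of the 8 members, all but Carm1, with 8 windows in all. Capitals mark letters, on either strand, of 5 motifs: the E-box as CACGTG, the CCAAT box by its name, the GC box as GGGCGG, a sequence of E2F type as TTTCCCGC, and the TATA box as TATAAA. A match on the opposite strand is marked as its reverse complement, and overlapping matches merge. The windows are Prmt1 at chr7:44986421-44986670, Prmt5 at chr14:54517471-54517720 and Prmt2 at chr10:76237866-76238115.
Prmt1: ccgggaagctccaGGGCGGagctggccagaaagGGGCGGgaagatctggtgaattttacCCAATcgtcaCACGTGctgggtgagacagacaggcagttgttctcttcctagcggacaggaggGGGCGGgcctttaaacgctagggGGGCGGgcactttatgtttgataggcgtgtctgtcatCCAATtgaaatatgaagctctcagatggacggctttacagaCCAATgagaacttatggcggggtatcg
Prmt5: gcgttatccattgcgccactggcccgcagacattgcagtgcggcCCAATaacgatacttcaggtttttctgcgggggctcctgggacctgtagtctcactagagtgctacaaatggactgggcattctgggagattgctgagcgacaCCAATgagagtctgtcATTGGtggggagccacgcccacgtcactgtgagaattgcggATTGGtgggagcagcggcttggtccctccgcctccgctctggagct
Prmt2: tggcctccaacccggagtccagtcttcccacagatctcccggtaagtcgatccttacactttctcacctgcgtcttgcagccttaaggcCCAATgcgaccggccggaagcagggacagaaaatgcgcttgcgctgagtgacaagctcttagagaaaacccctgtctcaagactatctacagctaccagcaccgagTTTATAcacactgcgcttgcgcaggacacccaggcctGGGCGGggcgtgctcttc

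Prmt1 held 3 matches to CCAAT, 191, 68 and 27 bases before its start, and Prmt5 held 4, starting 206, 103, 87 and 46 bases before it, the last 2 on the opposite strand. At least 1 CCAAT was found in 33.8% of the 32851 windows of this length, and 3 or more in 2.79%. Prmt2 and Prmt3 had 1 match each and Prmt6, Prmt7 and Prmt8 had none. The Prmt1 window also held 4 matches to GGGCGG, a number of 3 or more that 8.47% of windows reach, and 1 to CACGTG, found in 6.02% of windows. Prmt5 held neither, Prmt2 held 1 GGGCGG and 1 TATAAA on the opposite strand, and TTTCCCGC, found in 0.895% of windows, was in no member's window. These matches describe the letters of the windows and were not tested against binding.

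Prmt6, which places asymmetric marks on histone H3 and represses transcription, was higher in OT than in TO cells in both media and fell with the medium in WT and OT. It has 3 probes. The brightest, A_51_P331215 at chr3:110377303-110377362 (mm8, NM_178891), gave 9.06, 8.17, 8.96 and 8.42 in WT-p, 8.34, 7.94, 7.99 and 8.55 in TO-p, and 9.32, 9.39, 9.46 and 9.41 in OT-p. It gave 7.53, 7.85, 7.72 and 7.64 in WT-d, 8.13, 8.36, 8.53 and 8.29 in TO-d, and 8.83, 8.76, 8.73 and 8.84 in OT-d. OT-p was above the other 20 samples, and WT-p was the most spread group (SD 0.428). TO-p was lower than OT-p by 1.24 [-1.54, -0.94] (2.36-fold, adjusted p = 1.6e-07). OT-p was higher than WT-p by 0.75 [0.48, 1.02] (1.68-fold, adjusted p = 6.08e-05), and TO-p lower than WT-p by 0.49 (SE 0.137, 1.40-fold, adjusted p = 0.00792). The last of these was called in 17 of 22 other settings, with adjusted p from 0.000382 to 0.638, and not without WT-p replicate 3 (-0.39, adjusted p = 0.0791) nor without the letter b samples (-0.31, adjusted p = 0.123) or with the mean of the 3 probes (-0.07, adjusted p = 0.638).

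In differentiation medium the order in Prmt6 was OT-d (8.79 ± 0.0537), TO-d (8.32 ± 0.166) and WT-d (7.68 ± 0.133), with no overlap between any of them. OT-d was above WT-d by 1.04 (SE 0.144, 2.05-fold, adjusted p = 3.15e-06) and TO-d above WT-d by 0.64 (SE 0.164, 1.56-fold, adjusted p = 0.00287). TO-d was lower than OT-d by 0.40 [-0.71, -0.08] (adjusted p = 0.044), a call made in 12 of 22 other settings, with adjusted p from 0.0237 to 0.265. It was lost without TO-d replicate 1 (-0.36, adjusted p = 0.132), 2 (-0.39, adjusted p = 0.0645) or 4 (-0.39, adjusted p = 0.11) and without OT-d replicate 1 (-0.32, adjusted p = 0.14) or 4 (-0.38, adjusted p = 0.0865). With the change of medium Prmt6 fell by 0.94 (SE 0.154, adjusted p = 1.25e-05) in WT and by 0.65 (SE 0.137, adjusted p = 0.000217) in OT. In TO the difference was 0.19 [-0.11, 0.49] and was not called. The response in TO differed from that in OT by 0.84 (SE 0.209, adjusted p = 0.00247) and from that in WT by 1.13 (SE 0.214, adjusted p = 0.000343), in each of 30 other settings, and OT and WT were not called apart (0.29 [-0.12, 0.69]). That last difference was called without WT-p replicate 2 (0.49, adjusted p = 0.0387), over a range of 0.0387 to 0.753.

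**Figure D3:**
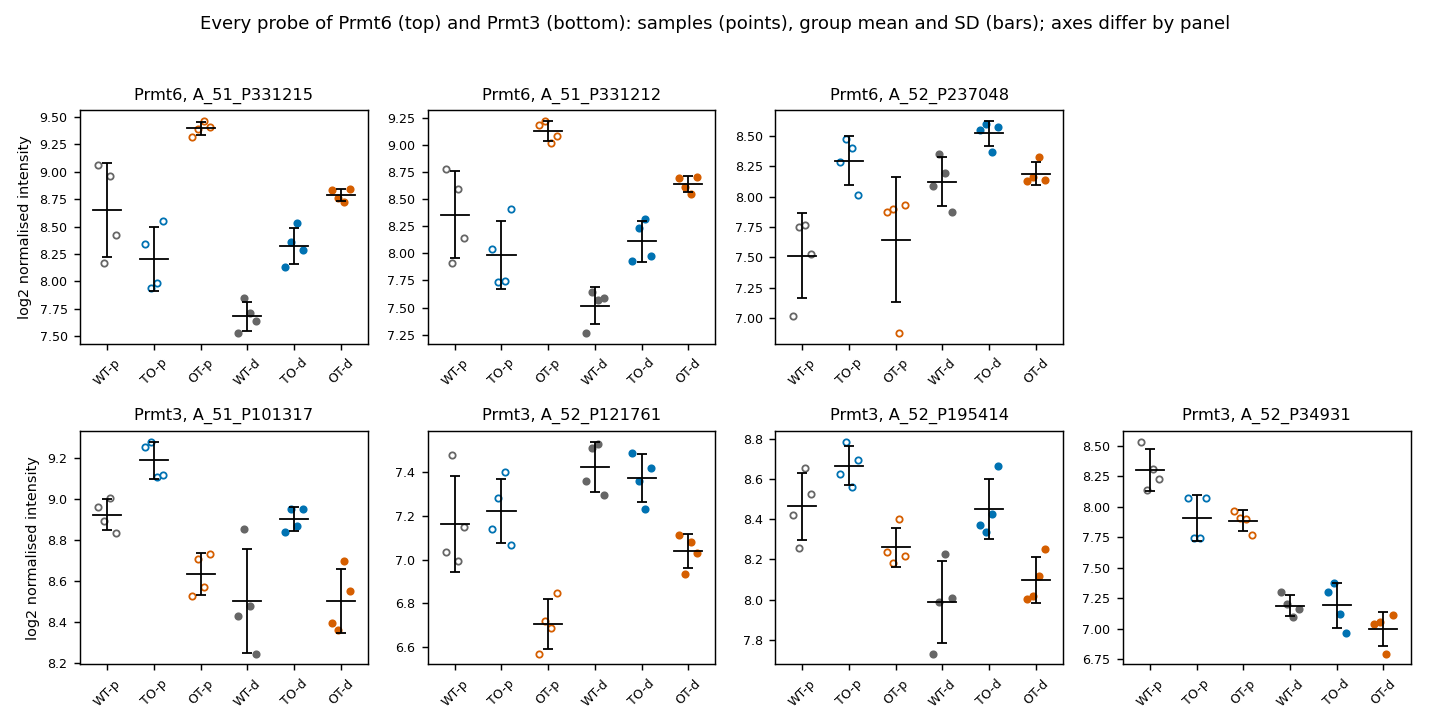
Log2 normalised intensity (y axis, scale differs by panel) of the 3 probes of Prmt6 (top) and the 4 probes of Prmt3 (bottom) in the 6 groups (x axis): points are samples, bars the group mean and SD. A_51_P331215 and A_51_P331212 of Prmt6 put OT-p highest, while A_52_P237048 put TO-d highest, and probe A_52_P34931 of Prmt3 separated the media most.

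The probes of Prmt6 did not move as 1. Probe A_51_P331212, which starts 180 bases from the brightest and is listed for the same transcript, put TO-p below OT-p (-1.15, adjusted p = 1.14e-06) and TO-d below OT-d (-0.46, adjusted p = 0.0318), with differences between media of -0.84, 0.17 and -0.53 in WT, TO and OT. Probe A_52_P237048, which starts 2975 bases away and is listed for another transcript, AK087608, went the other way in 8 of 12 comparisons. Its samples were at 7.02, 7.75, 7.76 and 7.53 in WT-p, 8.28, 8.47, 8.40 and 8.02 in TO-p, and 7.87, 7.90, 6.88 and 7.93 in OT-p. They were at 8.09, 8.35, 8.19 and 7.87 in WT-d, 8.55, 8.59, 8.37 and 8.57 in TO-d, and 8.13, 8.16, 8.33 and 8.14 in OT-d. On this probe TO-p was higher than OT-p by 0.55 [0.24, 0.87] (adjusted p = 0.0038) and higher than WT-p by 0.69 [0.38, 0.99], and the change of medium raised it by 0.49 in WT (adjusted p = 0.012) and by 0.44 in OT (adjusted p = 0.0116). Not every comparison turned: TO-d was above WT-d on this probe too, by 0.44 (adjusted p = 0.0453), as on A_51_P331212 (0.59, adjusted p = 0.00854), and its values of 0.13 for OT-p against WT-p, 0.08 for OT-d against WT-d and 0.24 for the medium in TO had the sign of the brightest probe without a call. Of the comparisons reported for Prmt6, the higher level in TO-d against WT-d was thus called on all 3 probes, and the other calls are those of the 2 probes listed for NM_178891.

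Prmt3, which methylates the ribosomal protein Rps2 in the cytosol, was higher in TO than in OT cells in both media on its brightest probe. That probe, A_51_P101317 at chr7:49725910-49725969 (mm8, NM_133740), gave 8.96, 8.89, 9.01 and 8.84 in WT-p, 9.25, 9.28, 9.11 and 9.11 in TO-p, and 8.53, 8.71, 8.57 and 8.73 in OT-p. In differentiation medium it gave 8.43, 8.85, 8.48 and 8.25 in WT-d, 8.84, 8.95, 8.87 and 8.95 in TO-d, and 8.40, 8.36, 8.70 and 8.55 in OT-d. The 3 proliferation groups did not overlap, nor did TO-d and OT-d, while WT-d overlapped both. TO-p was above OT-p by 0.54 [0.37, 0.71] (1.45-fold, adjusted p = 7.75e-06), and TO-d above OT-d by 0.42 [0.24, 0.61] (1.34-fold, adjusted p = 0.000535). Against WT cells TO-p was higher by 0.27 (SE 0.0794, adjusted p = 0.0105), TO-d higher by 0.40 (SE 0.0946, adjusted p = 0.00162) and OT-p lower by 0.27 (SE 0.0750, adjusted p = 0.00524), while OT-d and WT-d differed by -0.03 [-0.20, 0.15]. The call between TO-p and WT-p was made in 18 of 22 other settings, with adjusted p from 0.00459 to 0.554 (0.554 with local backgrounds as deposited, and 0.522 with the mean of the 4 probes, which gave 0.04), and that between OT-p and WT-p in 21 of 22, with adjusted p from 2.94e-06 to 0.106. The change of medium lowered Prmt3 by 0.42 (SE 0.0888, adjusted p = 0.000236) in WT and by 0.29 (SE 0.0835, adjusted p = 0.00489) in TO, and in OT the difference of -0.18 [-0.34, -0.01] was not called (adjusted p = 0.052). The fall in TO was not called with local backgrounds as deposited (-0.14, adjusted p = 0.414), over a range of 0.000102 to 0.414. The difference in OT was called in 7 of 22 other settings (adjusted p from 0.000267 to 0.387), among them without OT-p replicate 3 (-0.20, adjusted p = 0.0406) and without OT-d replicate 3 (-0.21, adjusted p = 0.0403). The responses of the 3 lines were not called apart in any pair, with differences of -0.12 for TO against OT, 0.13 for TO against WT and 0.24 for OT against WT. The last was called in 4 of 30 other settings, among them without WT-d replicate 2 (0.41, adjusted p = 0.00549), over a range of 0.00549 to 0.302.

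The other probes of Prmt3 lie up to 75509 bases from the brightest. Probes A_52_P121761 and A_52_P195414 gave TO-p above OT-p by 0.54 (adjusted p = 1.14e-05) and 0.37 (adjusted p = 0.000544), and TO-d above OT-d by 0.36 and 0.33. Probe A_52_P34931, listed for AK049836, gave 0.06 and 0.21 and was called in neither. Against WT cells the probes parted. TO-p minus WT-p was 0.09 on A_52_P121761 and 0.18 on A_52_P195414, neither called (adjusted p = 0.457 and 0.0912), and -0.36 on A_52_P34931 (adjusted p = 0.00202). TO-d minus WT-d was 0.45 on A_52_P195414 (adjusted p = 0.00055) and -0.04 and 0.01 on the others, not called, while OT-p was below WT-p on all 3, with -0.45, -0.19 and -0.41. For the medium the 3 probes parted as well: A_52_P121761, listed for AK082136, gave 0.28 in WT, 0.15 in TO and 0.33 in OT, A_52_P195414 gave -0.47, -0.20 and -0.16, and A_52_P34931 gave -1.08, -0.71 and -0.87. The higher level in TO than in OT cells was therefore called on 3 of 4 probes, that of TO-p over WT-p on 1 of 4, and the direction with the medium depended on the probe.

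Prmt7, the enzyme of monomethylarginine, was higher in TO than in OT cells in both media and changed with the medium in TO cells. Probe A_51_P298538 lies at chr8:109140733-109140792 (mm8, NM_145404). It gave 14.25, 14.45, 14.33 and 14.53 in WT-p, 14.89, 14.97, 15.22 and 14.80 in TO-p, and 14.11, 13.95, 14.13 and 14.03 in OT-p. It gave 14.26, 14.58, 14.44 and 14.39 in WT-d, 14.66, 14.60, 14.55 and 14.72 in TO-d, and 14.09, 14.12, 14.32 and 14.15 in OT-d. All 4 samples of TO-p were above the other 20, and every sample of TO was above every sample of OT in the same medium. TO-p exceeded OT-p by 0.91 [0.74, 1.08] (1.88-fold, adjusted p = 4.64e-09) and WT-p by 0.59 (SE 0.0796, adjusted p = 5.54e-06). OT-p was lower than WT-p by 0.32 (SE 0.0752, adjusted p = 0.0012). In differentiation medium TO-d exceeded OT-d by 0.47 [0.29, 0.66] (1.39-fold, adjusted p = 0.000179). TO-d against WT-d, at 0.22 [0.02, 0.42], was not called (adjusted p = 0.0621), but was called with the replicate block in place of the dye (adjusted p = 0.0474), without WT-d replicate 2 (0.30, adjusted p = 0.0212) and without TO-d replicate 3 (0.24, adjusted p = 0.0484), over a range of 0.00134 to 0.473. OT-d was lower than WT-d by 0.25 (SE 0.0838, adjusted p = 0.0145), and not without WT-d replicate 2 (-0.16, adjusted p = 0.18) nor without the letter b samples (-0.15, adjusted p = 0.304), over a range of 0.00124 to 0.304.

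Prmt7 fell with the medium in TO cells, by 0.35 (SE 0.0838, adjusted p = 0.00114), and was not called in WT (0.02 [-0.17, 0.20]) or OT (0.09 [-0.08, 0.25]). The response in TO differed from that in OT by -0.44 (SE 0.121, adjusted p = 0.00577), and was called in 29 of 30 other settings but not with loess alone (adjusted p = 0.117), over a range of 0.00151 to 0.117. It differed from that in WT by -0.37 (SE 0.124, adjusted p = 0.0239), a difference that was not called without WT-p replicate 1 (-0.32, adjusted p = 0.0618), WT-p replicate 3 (-0.33, adjusted p = 0.0691) or WT-d replicate 2 (-0.30, adjusted p = 0.066), nor without the letter b samples (-0.30, adjusted p = 0.185), over a range of 0.00277 to 0.585. The dimmer probe A_52_P536015, which starts 14594 bases away, gave TO-p above OT-p by 0.58 (adjusted p = 4.85e-05) and TO-d above OT-d by 0.43 (adjusted p = 0.00371). Against WT cells it gave -0.11 for OT-p, not called (adjusted p = 0.358), 0.01 for OT-d, not called (adjusted p = 0.952), 0.47 for TO-p (adjusted p = 0.000822) and 0.44 for TO-d (adjusted p = 0.00438). Between media it gave -0.28 in WT (adjusted p = 0.0295), -0.31 in TO (adjusted p = 0.0147) and -0.16 in OT (adjusted p = 0.158), and its differences of response were not called. The higher level in TO than OT, and in TO-p than WT-p, was thus called on both probes, and the lower level in OT than WT and the difference of response on the brighter one.

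Prmt8, a membrane-bound enzyme of the brain, was well above background in 0 of 24 samples. Its probe is mapped to a stretch of 761 bases, chr6:127655515-127656275 (mm8, NM_201371). Its levels ran from 5.90 to 6.24, where the lowest signal among probes well above background lay between 5.87 and 6.38 in the 24 samples, and no difference was computed.

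Read by comparison, TO and OT cells differed in 6 of 7 members in proliferation medium, 2 higher and 4 lower in TO-p, where 56.2% of all genes were called, 29.9% higher and 26.3% lower. Prmt3 and Prmt7 were higher and Prmt1, Carm1, Prmt5 and Prmt6 lower. In differentiation medium 5 of 7 differed, Prmt3 and Prmt7 higher and Prmt2, Carm1 and Prmt6 lower in TO-d, where 39.8% of all genes were called, 18.9% higher and 20.8% lower. Prmt3, Prmt7, Carm1 and Prmt6 thus were called with the same sign in both media. The samples of the 2 lines did not overlap for 5 members in proliferation and 4 in differentiation medium, where 8125 and 6788 of the 16241 genes did not overlap. Without the letter b samples 6 and 5 members were called.

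Each transfected line was also set against the same WT samples. TO-p differed from WT-p in 5 of 7 members, 3 higher and 2 lower, where 35.0% of all genes were called, 19.1% higher and 15.9% lower. OT-p differed in 5 of 7, also 3 higher and 2 lower, where 44.6% were called, 20.6% higher and 24% lower. Without the letter b samples these counts were 3 and 4, and with the description number as a random block the count for TO-p was 2. In differentiation medium TO-d was higher than WT-d in 5 members and lower in 0, where 46.5% of all genes were called, 22.9% higher and 23.6% lower. OT-d was higher than WT-d in 5 and lower in 1, Prmt7, where 51.8% were called, 26.6% higher and 25.1% lower. Prmt1, Prmt2, Prmt5 and Prmt6 were above WT-d in both transfected lines, by 0.77 and 0.61, 0.32 and 0.84, 0.36 and 0.44, and 0.64 and 1.04 in TO-d and OT-d. The same WT-d samples enter both comparisons.

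**Figure D4:**
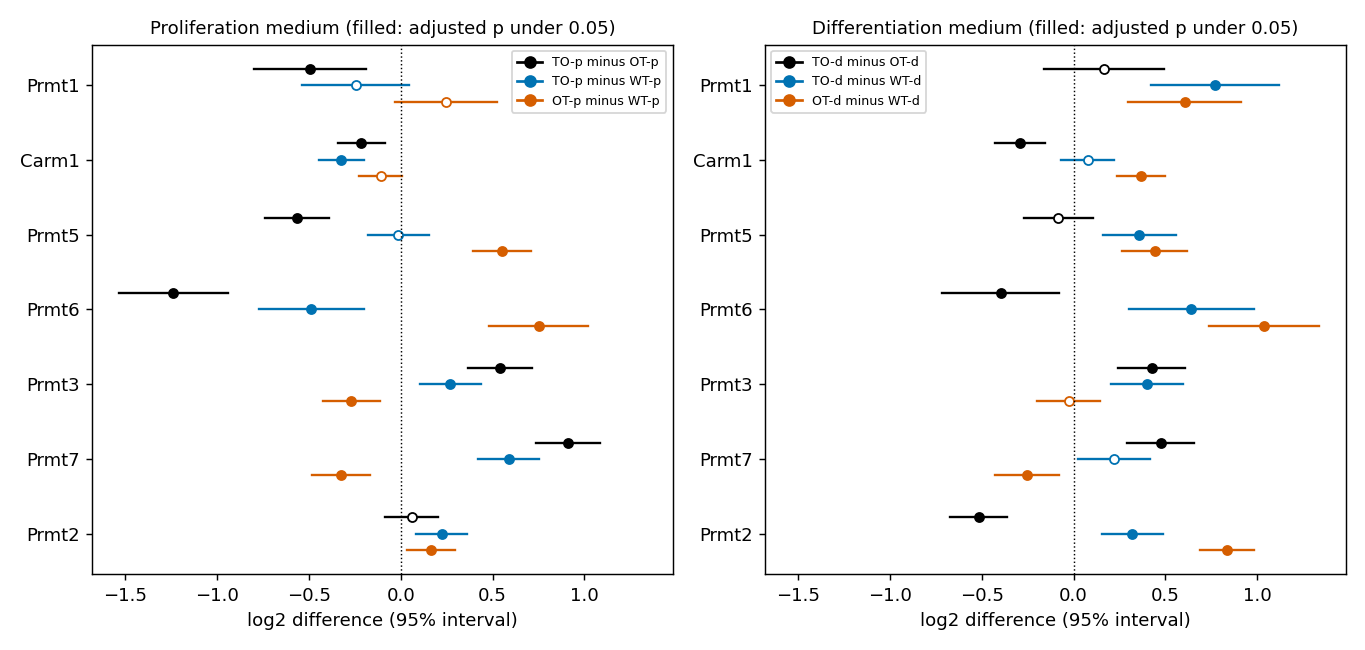
Fitted log2 differences (x axis) between lines in proliferation (left) and differentiation medium (right) for the 7 tested members (y axis): TO minus OT in black, TO minus WT in blue, OT minus WT in orange; lines are 95% intervals, and filled points have an adjusted p under 0.05. Prmt6 spans from -1.24 between TO-p and OT-p to 1.04 between OT-d and WT-d, and Prmt3 and Prmt7 were higher in TO than in OT in both media.

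The response to the medium itself differed between TO and OT in 5 of 7 members, 3 higher and 2 lower in TO, where 40.2% of all genes were called, 17.4% higher and 22.9% lower. Between TO and WT it differed in 5 of 7, 4 higher and 1 lower in TO, where 36.5% were called, 17.6% higher and 18.9% lower. Between OT and WT it differed in 2 of 7, Prmt2 and Carm1, both higher in OT, where 34.9% were called, 20.4% higher. Higher is meant with its sign: it was a larger rise for Prmt2 and a smaller fall for Prmt1, Carm1 and Prmt5, which fell in each line. The members called in a response were thus Prmt1, Prmt2, Carm1, Prmt5, Prmt6 and Prmt7 in at least 1 pair of lines, and Prmt3 in none. Without the letter b samples these counts were 3, 2 and 3. The TO and WT count was also 3 without WT-p replicate 1 and without WT-p replicate 3.

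The other genes of arginine methylation were taken from 5 lists. Of 44 tested substrates, proteins known to carry methylarginine, 30 fell and 7 rose in WT, 28 fell and 4 rose in TO, and 31 fell and 6 rose in OT cells with the change of medium, and their median log2 difference was -0.67, -0.38 and -0.59, against 0.06, 0.00 and 0.04 over all genes. The shares called over all genes, for this list and those that follow, were 30.8% lower and 35.8% higher in WT, 25.8% and 26.5% in TO, and 31.0% and 36.4% in OT. The largest falls were those of Sfpq (-3.12 in WT), a splicing factor, of E2f1 (-1.98 in WT, -1.67 in TO, -1.83 in OT), a cell cycle transcription factor, of Alyref (-1.80, -1.16 and -1.82), an mRNA export adaptor, and of Lsm4 (-1.29 in TO) and Mre11a (-1.79 in OT). Sf3b2, a splicing factor, rose by 1.09 in WT, 0.75 in TO and 0.58 in OT, Fxr1 by 1.21 in WT and the cold-induced Cirbp by 1.37 in OT. Over 14 other settings the substrates that fell numbered 28 to 31 in WT, 23 to 28 in TO and 26 to 33 in OT. Between TO-p and OT-p 20 of 44 were lower and 5 higher, where 26.3% of all genes were lower and 29.9% higher, led by Sfpq (-1.13) and Lsm10 (0.95), with 17 to 22 lower in the other settings. Between TO-d and OT-d 7 of 44 were lower and 7 higher, where 20.8% of all genes were lower and 18.9% higher.

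Elavl1 itself, listed among the substrates, differed by less than 1 on the log2 scale in every comparison. Its group means were 12.06 ± 0.112 in WT-p, 12.26 ± 0.0766 in TO-p, 12.001 ± 0.0825 in OT-p, 11.71 ± 0.281 in WT-d, 12.05 ± 0.0835 in TO-d and 12.19 ± 0.0995 in OT-d. TO-p was higher than OT-p by 0.23 (SE 0.0842, adjusted p = 0.0238), while TO-d and OT-d were not called apart (-0.06, adjusted p = 0.642). It fell with the medium in WT, by 0.33 (SE 0.0901, adjusted p = 0.00295), and was not called in TO (-0.18, adjusted p = 0.0882) or OT (0.11, adjusted p = 0.22). In differentiation medium it was above WT-d in TO-d by 0.33 (SE 0.0959, adjusted p = 0.00763) and in OT-d by 0.39 (SE 0.0847, adjusted p = 0.000561).

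Wdr77, the partner that Prmt5 needs for activity, had means of 11.07 ± 0.351 in WT-p, 10.93 ± 0.180 in TO-p, 11.74 ± 0.209 in OT-p, 10.11 ± 0.108 in WT-d, 11.22 ± 0.0774 in TO-d and 11.13 ± 0.116 in OT-d. OT-p was the highest and WT-d the lowest group, as for Prmt5. It fell with the medium in WT (-1.01, adjusted p = 2.89e-07) and OT (-0.65, adjusted p = 2.08e-05) and rose in TO (0.35, adjusted p = 0.0155). TO-p was below OT-p by 0.89 (SE 0.118, adjusted p = 1.07e-06). Of the 12 tested partners and related genes, 5 rose in each line with the medium, and 4, 2 and 4 fell in WT, TO and OT. These counts lie near the shares over all genes in WT (35.8% higher and 30.8% lower) and in OT (36.4% and 31.0%). Btg1 and Btg2, antiproliferative proteins that bind Prmt1, rose by 1.02 and 1.47 in WT, 0.50 and 0.86 in TO, and 1.35 and 2.33 in OT. Riok1 and Clns1a, which bring substrates to Prmt5, fell in WT (-0.39 and -0.60) and OT (-0.79 and -0.44), and Clns1a fell in TO as well (-0.30). Prmt9, a further methyltransferase, had means of 10.95 in WT-p and 11.43 in WT-d, 11.22 in TO-p and 12.14 in TO-d (a rise of 0.87 in the fit), and 11.46 in OT-p and 11.97 in OT-d.

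Of 11 tested genes of the AdoMet cycle, 4 rose and 5 fell in WT, 3 rose and 5 fell in TO, and 3 rose and 6 fell in OT with the medium, where over all genes 35.8%, 26.5% and 36.4% rose and 30.8%, 25.8% and 31.0% fell. Mtr fell by 1.28 (SE 0.0978) in WT, by 0.87 (SE 0.0920) in TO and by 1.63 (SE 0.0874) in OT, and Ahcy, which hydrolyses the S-adenosylhomocysteine left by methylation, by 0.91, 1.18 and 1.12. Between TO-p and OT-p 1 was higher and 2 lower, where 29.9% and 26.3% of all genes were, and 8 were not called. The largest change was that of Amd1 (-0.81, adjusted p = 9.72e-08), which draws AdoMet into polyamine synthesis. Between TO-d and OT-d 2 were higher and 1 lower, where 18.9% and 20.8% of all genes were. Mtr was higher in TO-d by 0.62 (SE 0.0978, adjusted p = 2.33e-05), as was Mtap by 0.56.

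Among 8 tested genes of methylarginine handling, 5 were higher in TO-p and 1 in OT-p, where over all genes 29.9% and 26.3% were. Ddah1, which breaks down asymmetric dimethylarginine, was at 12.92 ± 0.238 in TO-p and 12.24 ± 0.0947 in TO-d, against 10.45 ± 0.0250 in OT-p and 10.23 ± 0.195 in OT-d and 10.53 ± 0.374 in WT-p and 9.63 ± 0.164 in WT-d. TO-p exceeded OT-p by 2.49 (SE 0.121, 5.62-fold, adjusted p = 1.99e-13) and TO-d exceeded OT-d by 1.90 (3.72-fold, adjusted p = 9.96e-11). Nos3 followed (1.51 and 0.65), and Jmjd6, reported as an arginine demethylase, was lower in TO in both media (-0.43 and -0.41). Between TO-d and OT-d 5 of the 8 were higher and 2 lower in TO-d, where 18.9% and 20.8% of all genes were. Nos1, neuronal nitric oxide synthase, had means of 14.25 ± 0.207 in TO-d and 15.47 ± 0.112 in OT-d. With the medium Nos1 rose by 1.80 in WT, 1.65 in TO and 2.73 in OT. Of the 8 genes 2 rose and 4 fell in WT, 2 rose and 5 fell in TO, and 4 rose and 2 fell in OT. Of 8 tested readers, Tudor proteins that bind methylarginine, Smn1 fell by 1.14, 0.61 and 1.27 and Tdrd3 by 0.89, 0.47 and 0.59 in WT, TO and OT, and Tdrd9 rose by 1.39, 1.47 and 1.72. In all, 1 of the readers rose and 3 fell in WT, 2 rose and 4 fell in TO, and 2 rose and 3 fell in OT, and the 3 of 8 that fell in WT and in OT lie near the 30.8% and 31.0% over all genes.

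The genes most like each member were found by Pearson's r over the 24 samples among 13793 tested genes with a RefSeq symbol, as a description. The 24 samples share 6 groups, so such a correlation mostly follows the group means. Prmt5 was nearest to the ribosome biogenesis genes Mak16 (r = 0.977) and Rbm28 (r = 0.966), with Fam98a between them. Prmt1 was nearest to 4933417G07Rik (r = 0.970), Ranbp1 (r = 0.969) and Cycs (r = 0.967), and Carm1 to Mapre1 (r = 0.969), Sgo2a (r = 0.963) and Sephs2 (r = 0.963). The genes nearest to Prmt2 were Pgap4 (r = 0.972), Tmem19 (r = 0.959) and Cbx6 (r = 0.956), and those nearest to Prmt6 were Gm5124 (r = 0.973), Slc30a6 (r = 0.957) and Tfip11 (r = 0.957). Prmt7 lay nearest to Plcd1 (r = 0.950), Glod5 (r = 0.946) and Ydjc (r = 0.935), and Prmt3 to Hfe (r = 0.927), Ttll5 (r = 0.925) and Ciao2b (r = 0.919). No 2 of the 7 members shared a gene among these 21.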

How the data were processed

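Each array measured 2 samples in separate dyes. The scanner tables, which the authors deposited as written by Agilent Feature Extraction per the submitters' processing notes, hold raw intensity per spot with its local background. The series table, used as an alternative, holds values that followed the scanner's intensity for the same spots (lowest correlation 0.999). Probe positions are on mm8 per the file headers; exon and UTR annotation of that build was not used here.

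In R 4.3.3 with limma 3.58.1, local backgrounds that carry the scanner's outlier marks (1.81%) were set to the channel median, a step chosen after seeing that 1 array could not otherwise be corrected. Mean intensity was then corrected by normexp (offset 50), the 1639 control spots were dropped, and loess within arrays and Aquantile between arrays gave log2 intensity per dye. Spots with outlier marks (0.294% of values) were left out, spots of a probe were averaged, and the brightest probe stood for a gene. A gene was tested if it was well above background throughout 1 or more groups. The fit had 6 group means and a dye term, with array as a block and an intraspot correlation of 0.452; lmFit was used since lmscFit takes no missing values, and 17 residual and 5.09 prior degrees of freedom resulted. P-values are two-sided and were adjusted by Benjamini-Hochberg over 16241 genes. The number of arrays limits the precision.

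The members and the 5 lists were chosen with earlier results of these data known. All members and probes are named; of each list, at most 3 called genes per direction with the largest change were eligible, plus Elavl1 and Wdr77, and 3 most correlated genes per member. On simulated data for TO-p minus OT-p with 15835 genes, 99% of changes of 1 and 81% of changes of 0.5 (log2) were recovered, with 12 false calls. Only 100 genes were changed at each size, a far smaller share than was called in the data. Figures were drawn with matplotlib 3.10.9. Of 60 pairs of samples with 1 replicate number in different groups, 15 correlated over 0.1 in their deviations from the group and dye means. Pairs with different numbers across groups were not compared, so whether replicate numbers pair samples was not tested. Other background corrections, normalizations, filters, probe rules, covariates, blocks and left-out samples were tried.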

Additional observations from a re-analysis of the deposited data

Results flagged for a closer look

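The response to the medium, the log2 difference between differentiation and proliferation medium, was compared between lines for the 7 tested members, 21 comparisons in all, and 12 had an adjusted p under 0.05 in the limma fit. Over all genes 40.2% were called for TO against OT, 36.5% for TO against WT and 34.9% for OT against WT. Against OT, the response in TO was higher by 0.66 for Prmt1, 0.48 for Prmt5 and 0.84 for Prmt6, and its difference was -0.58 for Prmt2 and -0.44 for Prmt7. Against WT, the response in TO was higher by 1.02 for Prmt1, 0.40 for Carm1, 0.37 for Prmt5 and 1.13 for Prmt6, and its difference was -0.37 for Prmt7. Against WT, the response in OT was higher by 0.67 for Prmt2 and 0.48 for Carm1. Prmt1, Carm1 and Prmt5 fell with the medium in each line, so a higher response was a smaller fall for these. For Prmt2, which rose in each line, it was a larger rise. The comparisons share samples, since each line enters 2 of the 3.

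No sample passed the cutoff of Dixon's test on the 42 groups of 4 samples, of which chance alone flags about 1 in 20. Only the brightest probe of each tested member was put to it. The largest ratio was 0.821, for Prmt1 in OT-d replicate 1, at 12.95 where the next sample was at 13.47. With 4 samples a distant one can go unmarked. On probe A_52_P237048 of Prmt6, not put to the test, OT-p replicate 3 was at 6.88 and the other samples of OT-p at 7.87 to 7.93.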

How the results depend on the processing

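Of 840 single-gene results with 1 replicate left out, 812 kept their side of the threshold, 21 lost and 7 gained a call, and 0 reversed. Reversed means a change of sign with a call in either fit. A change of sign without a call in either fit is among those that kept their side. The number of members called ranged, with 1 replicate left out, from 6 to 6 for TO-p against OT-p, 4 to 5 for TO-d against OT-d, 4 to 6 for TO-p and 5 to 6 for TO-d against WT, 4 to 5 for OT-p and 5 to 6 for OT-d against WT, and 6 to 6, 6 to 6 and 5 to 6 for the medium in WT, TO and OT. For the medium response it ranged from 5 to 5 for TO against OT, 3 to 5 for TO against WT (3 without WT-p replicate 1 and without WT-p replicate 3) and 2 to 3 for OT against WT. Larger moves followed from processing, and the cause was not tested. With loess alone TO-d against OT-d went from 5 to 3 and the response of OT against WT from 2 to 4. With local backgrounds as deposited, an alternative added after seeing the data, TO-p and OT-p against WT-p each went from 5 to 3. With the mean of all probes TO-p against WT-p and the response of TO against WT went from 5 to 3. Without the letter b samples, which leaves 3 a group, TO-p against WT-p and the response of TO against OT went to 3, and the response of TO against WT to 2. With the description number as a random block TO-p against WT-p went to 2.

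Signs turned on other probes of a gene. For Carm1, A_52_P283258 gave 0.094 for TO-p against OT-p, -0.037 for OT-d against WT-d and -0.058 for the response of TO against WT. For Prmt6, A_52_P237048 gave 0.55, 0.36 and 0.69 for TO-p against OT-p, TO-d against OT-d and TO-p against WT-p, 0.49 and 0.44 for the medium in WT and OT, and -0.20 and -0.25 for the response of TO against OT and WT. For Prmt3, A_52_P34931 gave -0.36 for TO-p against WT-p, and A_52_P121761 gave -0.039 for TO-d against WT-d and 0.28, 0.15 and 0.33 for the medium in WT, TO and OT. For Prmt7, A_52_P536015 gave 0.0088 for OT-d against WT-d and -0.28 for the medium in WT. None of these values for Carm1 was called (adjusted p = 0.371, 0.74 and 0.748). Nor were 0.36, -0.20 and -0.25 for Prmt6 (adjusted p = 0.0933, 0.526 and 0.41). The same holds for -0.039 and 0.15 for Prmt3 (0.772 and 0.144) and 0.0088 for Prmt7 (0.952). Within slides, 113 of 114 called values kept their sign, the exception being Carm1 in TO-p against WT-p on slide 1 (0.081). The dye was not removed from these values, and there TO-p was in Cy5 and WT-p in Cy3.

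The title's replicate numbers mark the dye in every group. Over 60 pairs that share a replicate number across groups the median correlation of deviations was -0.02 (-0.300 to 0.321). Pairs of different numbers across groups were not compared, so whether the numbers pair samples was not tested. For the 6 pairs that share a description number, with and without b, the median was 0.006 (-0.594 to 0.208). For the 30 other pairs within a group it was -0.473 (-0.698 to 0.400). The 4 samples of a group may thus not be independent, which was not tested. With the replicate block in place of the dye term the counts were 6, 5, 5, 6, 5, 6, 6, 6 and 5 in the order above and 5, 5 and 2 for the responses, and 1 call of 84 changed, Prmt7 in TO-d against WT-d (0.23, adjusted p = 0.0474). On simulated data 81% of changes of 0.5 (log2) were recovered, with 12 false calls. There 100 of 15835 genes were changed at each size, while 56.2% of all genes were called between TO-p and OT-p in the data. The adjusted p thus has another cutoff there, and the 81% does not give the share recovered in the data. Small differences may still be missed.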
